A study of Mus musculus with 46 samples.

Results

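The genes described here encode proteins of the synaptic vesicle release machinery and their close relatives: synaptotagmins, syntaxins, VAMPs and SNAPs, syntaxin-binding proteins, complexins, RIM and Munc13 proteins, synapsins and SV2 proteins. They were chosen by gene symbol, as autosomal genes of these families with a mean count, summed over both alleles, of 20 or more at any age. Of 63 genes that match the symbols, 1 is not autosomal and 2 are under the minimum, which left 60 of the 15499 genes in the tables. Vamp5, with a mean count of 23.4 at its highest age, and Unc13d, with 47.2, lie just inside the minimum. Snap25, with 18.6, and Syt15, with 2.07, lie just outside. Snap25 encodes a core SNARE of the neuronal plasma membrane. Its count here is of reads assigned to an allele, so it does not give the abundance of its RNA.

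Messenger RNA of the dorsal raphe nucleus, the main serotonergic nucleus of the brainstem, was sequenced from female F1 hybrids of C57 and CAST mice. The hybrids came from the reciprocal crosses F1i and F1r, and which strain gave the mother of F1i is not in the labels. There were 7 F1i and 7 F1r libraries at postnatal day 5 (P5), 7 F1i and 7 F1r libraries at P15, and 9 F1i and 9 F1r libraries from adults. Each animal carries 1 C57 and 1 CAST allele of every autosomal gene, so that the counts of both alleles within a library compare the strains in the same cells, the totals compare ages and crosses, and the difference between crosses in the allele ratio bears on the parent from which an allele came. Labels do not give separate litters or extraction days, and adult libraries carry a pair of numbers that the labels do not explain, so the p-values measure the spread between these libraries.

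Fusion of a synaptic vesicle is driven by SNARE proteins, VAMP on the vesicle and syntaxin and SNAP on the plasma membrane, which zip into a common bundle. Munc18 proteins hold and template syntaxin, Munc13 and RIM proteins prime and position vesicles at the active zone, complexins bind the assembled SNAREs, and synaptotagmins with calcium-binding C2 domains trigger fusion when calcium enters. Relatives of these proteins work at endosomes, the Golgi apparatus and the plasma membrane of all cells. Of the 60 genes, 17 are such SNAREs of other membranes, 1 is an adaptor of vesicle endocytosis (Snap91), 1 is an annotated pseudogene (Vamp7-ps), and several of the other synaptotagmins and syntaxin-binding proteins have roles beyond the synapse, so the symbols take in more than the presynaptic terminal. The remaining members are 4 neuronal SNAREs, 3 fast calcium sensors, 12 other synaptotagmins, 2 complexins, 7 Munc18 and syntaxin-binding proteins, 8 priming and active zone proteins and 5 vesicle proteins.

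Close relatives share stretches of coding sequence, and these are shown because reads of 50 bases that fall in a shared stretch could be counted for either gene. The longest run shared exactly is in capitals, with 15 bases on each side, from the coding sequences of the GENCODE M21 annotation.
Vamp1, coding positions 127 to 144 in capitals: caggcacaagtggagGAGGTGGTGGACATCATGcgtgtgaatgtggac
Vamp2, coding positions 121 to 138 in capitals: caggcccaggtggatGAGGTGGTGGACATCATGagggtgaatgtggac
Cplx1, coding positions 28 to 59 in capitals: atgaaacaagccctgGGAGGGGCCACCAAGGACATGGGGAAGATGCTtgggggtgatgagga
Cplx2, coding positions 28 to 59 in capitals: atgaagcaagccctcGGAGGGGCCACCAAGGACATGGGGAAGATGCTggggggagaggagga
Syt1, coding positions 886 to 911 in capitals: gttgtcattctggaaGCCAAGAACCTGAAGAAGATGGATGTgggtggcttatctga
Syt2, coding positions 889 to 914 in capitals: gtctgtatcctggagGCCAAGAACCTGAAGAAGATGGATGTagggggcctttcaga
The shared runs of these pairs are 18, 32 and 26 bases long, all shorter than a read. Over whole transcripts, 25 of the 60 genes hold no word of 50 bases in common with another gene and 4 hold such words over 10% or more of their positions: Stx18 (29.6%), Syt12 (17%), Syn3 (14.2%) and Syt4 (10.9%). The values of these 4 genes are uncertain, since how reads that match several places were counted is not given in the sources used here. These shares count words and not reads, so they do not bound the error.

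Library totals, as allele-assigned counts, ran between 5100560 and 10319139 at P5, between 3692778 and 8032987 at P15 and between 4912934 and 13085952 in adults. All levels below are CPM, counts of the summed alleles scaled to the size of the library, after TMM scaling, and they are compared between libraries only, never between genes, because the number of sites that tell the alleles apart differs from gene to gene. Serotonergic markers were present at every age: Tph2, the serotonin-synthesising enzyme of the brain, had a median of 104.5 CPM at P5, 548 at P15 and 525 in adults. Pcp2 and Cbln3, which mark cerebellar neurons, had medians under 1 CPM at every age. Within an age, the first principal component held 13.1% of the variance at P5, 58.2% at P15 and 52.9% in adults. F1i libraries 1 and 2 at P15 and F1i library 1 in adults lay farthest out at those ages. At P5, F1r library 2 lay farthest out, with a loading of 0.708, and was kept in all fits. The results by age, and by cross at P15 and in adults, were therefore also computed without the 3 P15 and adult libraries. This choice was made after seeing the data, and its outcome is given in the last section.

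Between P5 and P15 most release genes changed, and the direction depended on the gene. Of the 60 members, 30 rose and 25 fell at P15 against P5, and 5 did not pass (edgeR quasi-likelihood test, adjusted p under 0.05). The same threshold was passed by 83.4% of all 13637 genes tested, 42.5% being higher and 40.9% lower, so that a changed gene was the common case. The median log2 change was 0.12 over the members and 0.02 over all genes. In adults against P15, 29 members rose, 20 fell and 11 did not pass, where 74.7% of all genes were called, 37% higher and 37.7% lower, and the median log2 changes were 0.13 over the members and -0.01 over all genes. Both steps use the same P15 libraries, so their values are given side by side and not related to each other.

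Markers of other cells moved with age. Summed CPM of 9 myelin markers had a median of 2308 in P5 libraries, 23831 in P15 libraries and 9123 in adult libraries, while 7 markers of immature neurons had 6383, 1269 and 1173 and 10 neuronal markers had 9085, 8795 and 8887. Within the neuronal sum, members went different ways: Snhg11 had medians of 5174, 4751 and 3250 CPM, while Nefh had 191, 235 and 728 and Eno2 had 227, 306 and 458. Summed CPM of 5 serotonergic markers had medians of 476, 1168 and 1263. Among them Fev had medians of 50.3, 41.0 and 72.4 CPM, while the others had higher medians at P15 than at P5, as Tph2 with 104.5, 548 and 525. In bulk tissue, a change in the share of a cell type and a change in RNA per cell cannot be told apart, and the part of these shifts in the results by age was not tested.

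**Figure D1:**
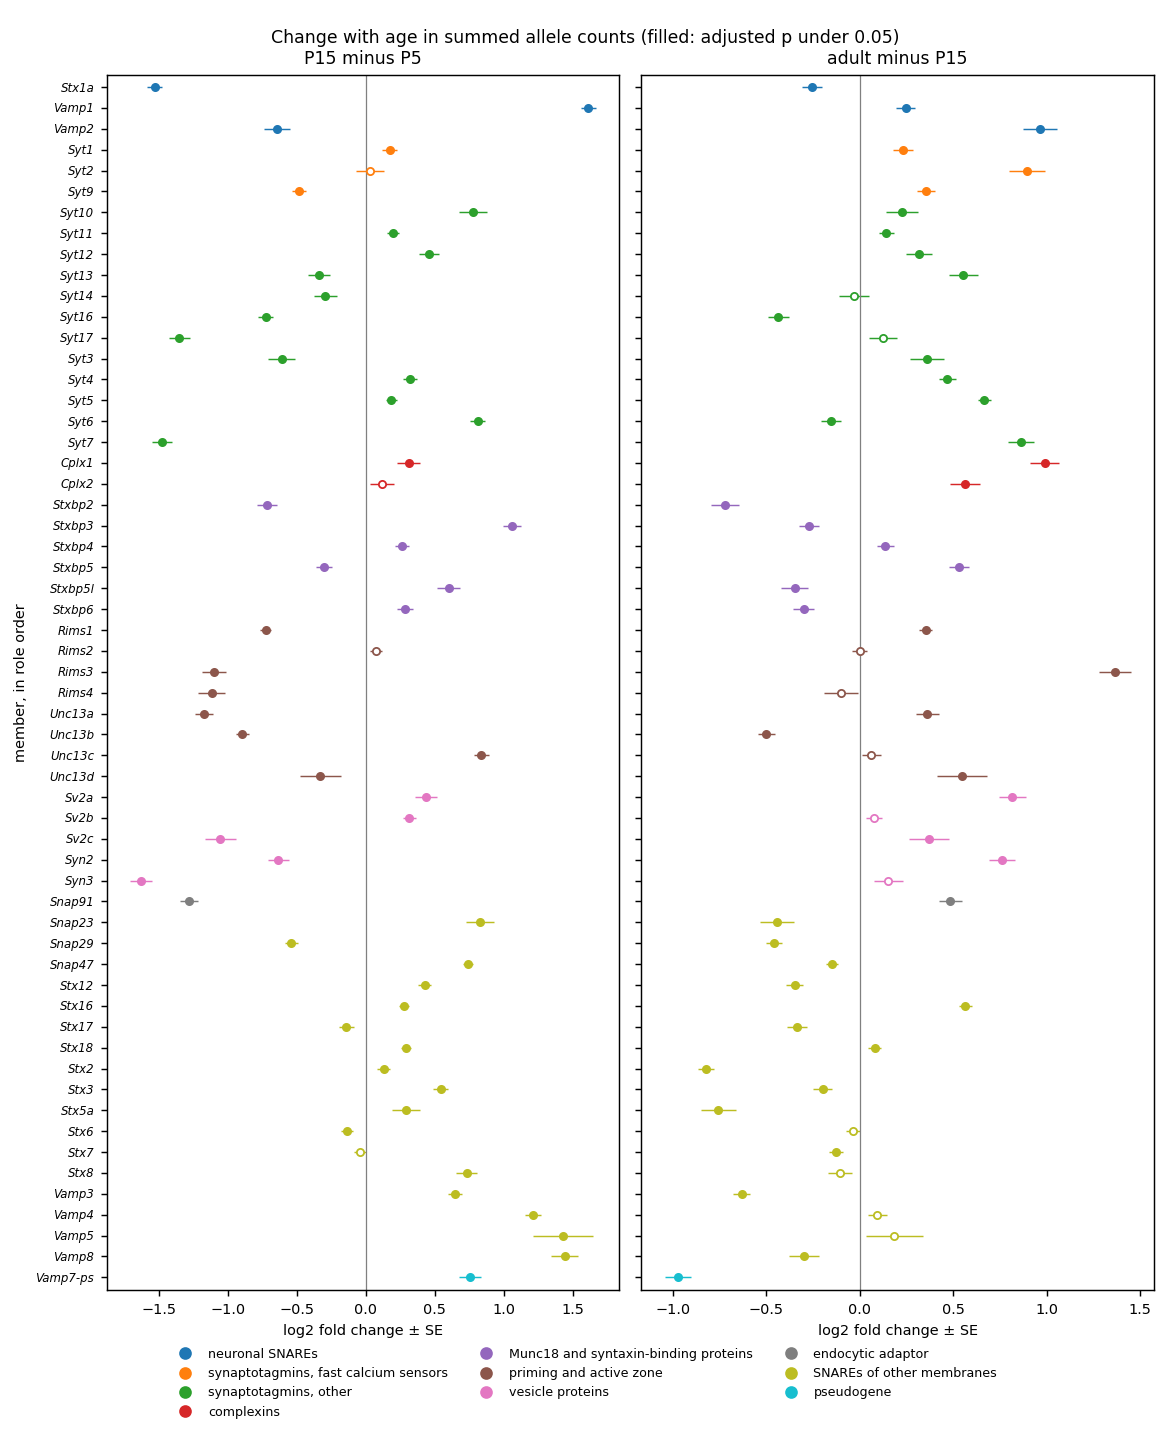
Log2 change of 58 of the 60 members between P15 and P5 (left) and between adults and P15 (right), with its standard error; members are ordered and coloured by role, and filled points passed an adjusted p of 0.05. Priming proteins lie mostly left of zero in the first step, and SNAREs of other membranes lie mostly right of zero in the first step and left in the second. Roles were not tested as sets.

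The neuronal SNAREs did not move together. Vamp1 and Vamp2 encode synaptobrevins, the vesicle SNAREs that also are the targets of tetanus toxin. Vamp1 (ENSMUSG00000030337) had CPM of 162, 195 and 234 in the lowest, median and highest library at P5, 469, 605 and 717 at P15, and 582, 710.3 and 914 in adults. Every P15 library lay above every P5 library, while adult and P15 libraries overlapped. Vamp1 rose 3.06-fold at P15 against P5 (log2 1.61 ± 0.06 SE, n = 14 and 14, adjusted p = 2.62e-30) and by a log2 of 0.24 ± 0.05 in adults against P15 (n = 18 and 14, adjusted p = 3.82e-05). Vamp2 (ENSMUSG00000020894) had 913, 1012 and 1112 CPM at P5, 405, 625.1 and 981 at P15, and 985, 1285 and 1463 in adults. It was low at P15: its log2 change was -0.64 ± 0.10 at P15 against P5 (adjusted p = 3.99e-08), with overlapping libraries, and 0.96 ± 0.09 in adults against P15 (adjusted p = 3.01e-13), with every adult library above every P15 library.

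Stx1a encodes a syntaxin of the presynaptic plasma membrane. Stx1a (ENSMUSG00000007207) had 237, 259 and 292 CPM at P5, 78.0, 87.8 and 104.4 at P15, and 51.6, 77.5 and 88.9 in adults. All P15 libraries were below all P5 libraries, and Stx1a fell 2.88-fold at P15 against P5 (log2 -1.53 ± 0.06, adjusted p = 7.57e-30) and by a log2 of 0.25 in adults against P15 (-0.25 ± 0.05, adjusted p = 2.34e-05).

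Syt1, Syt2 and Syt9 are the fast calcium sensors, which trigger synchronous release. Syt1 had 718, 771 and 877 CPM at P5, 729.7, 871 and 1043 at P15, and 844, 1018 and 1219 in adults. It rose at each step although libraries of neighbouring ages overlapped, with log2 changes of 0.17 ± 0.06 (adjusted p = 0.00456) and 0.23 ± 0.05 (adjusted p = 0.000142). Syt2, the sensor of fast brainstem synapses, had 192, 236 and 265 CPM at P5, 157, 215 and 355 at P15, and 307, 429.9 and 591 in adults. Its P15 libraries covered more than the P5 range, with a log2 change of 0.03 ± 0.10 that did not pass (adjusted p = 0.778), and it rose by a log2 of 0.89 ± 0.10 in adults against P15 (adjusted p = 9.25e-12). Syt9 fell at P15 against P5 (log2 -0.48 ± 0.05) and rose in adults against P15 (log2 0.36 ± 0.05).

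Of the 12 other synaptotagmins, 6 rose and 6 fell at P15 against P5, and 8 rose and 2 fell in adults against P15. Over all genes, 42.5% were higher and 40.9% lower in the first step, and 37% and 37.7% in the second. Syt7, a high-affinity calcium sensor of asynchronous release and facilitation, had 246.5, 262 and 279.5 CPM at P5, 72.6, 88.8 and 133 at P15, and 154, 172 and 193 in adults. The 3 ages did not overlap: Syt7 fell 2.78-fold at P15 against P5 (log2 -1.47 ± 0.07, adjusted p = 7.51e-24) and rose 1.82-fold in adults against P15 (log2 0.86 ± 0.07, adjusted p = 1.56e-15). Syt17, whose C2 domains do not bind calcium, fell to 17.4, 25.6 and 35.0 CPM at P15, against 58.2, 64.1 and 78.0 at P5 (log2 -1.35 ± 0.08, adjusted p = 4.3e-22). Its change in adults against P15 did not pass (log2 0.12 ± 0.07, adjusted p = 0.118), but passed without the libraries that stood apart. The largest rises in the group were those of Syt6 at P15 against P5 (log2 0.81 ± 0.06) and of Syt7 in adults against P15.

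**Figure D2:**
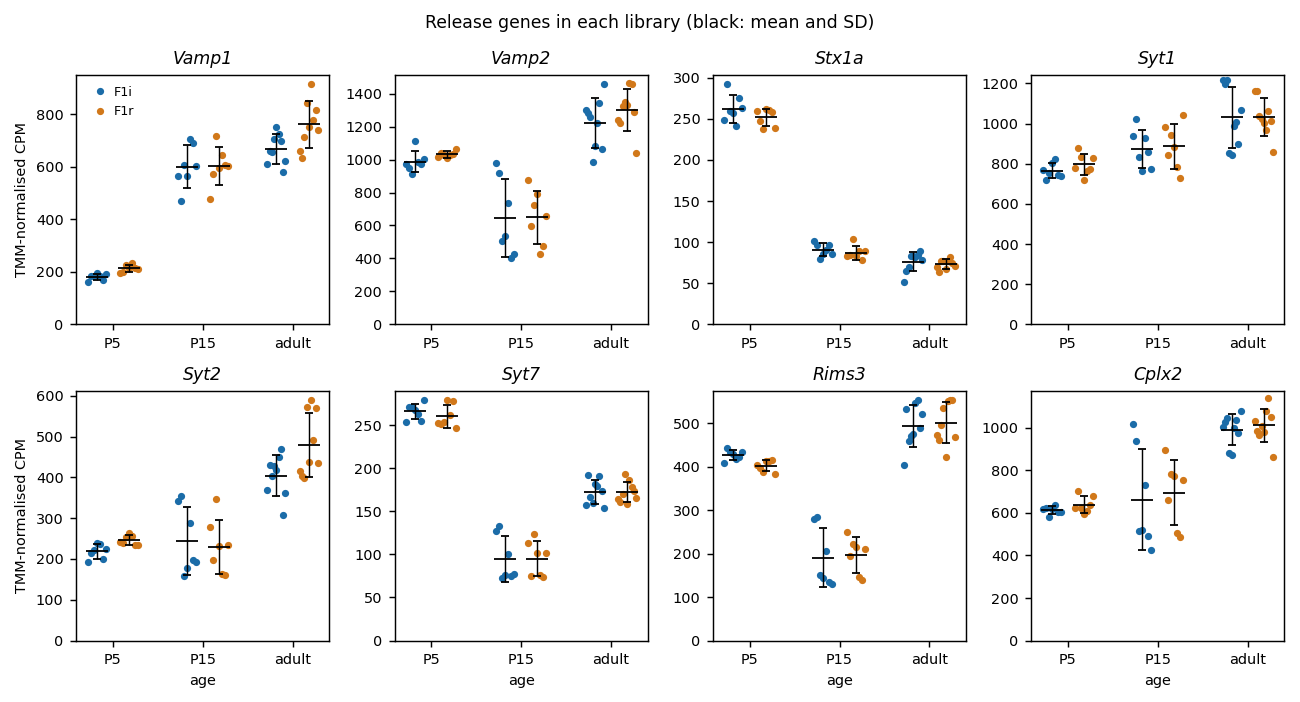
CPM in each library (y axis, linear from zero) of 8 release genes by age (x axis), with F1i libraries in blue left of F1r libraries in orange and black marks for the mean and SD of each group. Vamp1 is low only at P5, Stx1a is high only at P5, and Vamp2, Syt7 and Rims3 are lowest at P15, where libraries spread widely for Vamp2, Syt2, Rims3 and Cplx2.

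Both complexins, small proteins that clamp and promote SNARE-driven fusion, were higher in adults than at P15. Cplx1 had 158, 176 and 208 CPM at P5, 158, 219 and 338 at P15, and 364, 432 and 569 in adults. Every adult library was above every P15 library, and Cplx1 rose 1.99-fold in adults against P15 (log2 0.99 ± 0.08, adjusted p = 9.52e-16), after a log2 of 0.31 ± 0.08 at P15 against P5 (adjusted p = 0.000692). Cplx2 had 582, 621 and 704 CPM at P5, 424, 698 and 1017 at P15, and 862, 1005 and 1139 in adults. It did not pass at P15 against P5 (log2 0.12 ± 0.09, adjusted p = 0.206) and rose in adults against P15 (log2 0.56 ± 0.08, adjusted p = 3.88e-08).

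Munc18 and other syntaxin-binding proteins regulate the entry of syntaxins into SNARE complexes. Of the 7 Munc18 and syntaxin-binding genes, 4 rose and 3 fell at P15 against P5, and 3 rose and 4 fell in adults against P15. The shares of all genes were 42.5% higher and 40.9% lower in the first step, and 37% and 37.7% in the second. Stxbp3, the ubiquitous Munc18-3, rose 2.08-fold at P15 against P5 (log2 1.06 ± 0.06) with no overlap, and 9.27% of its words of 50 bases were shared with another gene. Stxbp2, the Munc18-2 of immune and epithelial cells, fell at both steps, by log2 changes of -0.71 ± 0.07 and -0.72 ± 0.07.

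Of the 8 genes of priming and the active zone, 6 fell and 1 rose at P15 against P5, and in adults against P15 4 rose and 1 fell. Beside them, 40.9% of all genes fell and 42.5% rose in the first step, and 37% rose and 37.7% fell in the second. Unc13a encodes Munc13-1, the main priming factor of central synapses. It had 348, 373 and 389 CPM at P5, 126, 156 and 225 at P15, and 169, 212 and 237 in adults, and fell 2.25-fold at P15 against P5 with no overlap (log2 -1.17 ± 0.06, adjusted p = 2.56e-22) before a rise of log2 0.36 ± 0.06 in adults against P15 (adjusted p = 6.54e-07). Unc13c, which encodes Munc13-3, differed from it in direction: Unc13c had 65, 74.4 and 81.8 CPM at P5, 98.9, 132 and 154 at P15, and 119, 137 and 164 in adults. It rose 1.79-fold at P15 against P5 with no overlap (log2 0.84 ± 0.05, adjusted p = 1.2e-19) and did not pass in adults against P15 (log2 0.06 ± 0.05, adjusted p = 0.24).

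Rims1, a RIM scaffold of the active zone, fell at P15 against P5 (log2 -0.72 ± 0.04) and rose in adults against P15 (log2 0.35 ± 0.04), both with no overlap between the ages compared. Rims3, a short RIM isoform gene, had 384, 415 and 443 CPM at P5, 131, 200.3 and 285 at P15, and 404, 493.2 and 554 in adults. P15 libraries lay below those of both other ages, with log2 changes of -1.10 ± 0.09 at P15 against P5 and 1.36 ± 0.08 in adults against P15 (adjusted p = 9.05e-20). Unc13b, which encodes Munc13-2, was lower at each later age: its log2 changes were -0.89 ± 0.05 at P15 against P5 and -0.50 ± 0.05 in adults against P15.

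The 5 vesicle proteins split by gene. Sv2a, the vesicle glycoprotein bound by levetiracetam, rose at both steps, by log2 changes of 0.44 ± 0.08 (adjusted p = 2.13e-06) and 0.82 ± 0.07 (adjusted p = 1.87e-14). Sv2b rose in the first step (log2 0.32 ± 0.05) and did not pass in the second (log2 0.08 ± 0.04, adjusted p = 0.104). Sv2c fell 2.07-fold at P15 against P5 (log2 -1.05 ± 0.11, adjusted p = 6.34e-12) and rose in adults against P15 (log2 0.37 ± 0.11, adjusted p = 0.00173). The synapsins tether vesicles in reserve: Syn2 fell at P15 against P5 (log2 -0.63 ± 0.07) and rose in adults against P15 (log2 0.76 ± 0.07). Syn3, the synapsin known from immature neurons, fell 3.09-fold at P15 against P5 (log2 -1.63 ± 0.08, adjusted p = 1.04e-24). Other genes share 14.2% of its words of 50 bases, so its counts may hold reads of those genes. Syn3 did not pass in adults against P15 (log2 0.15 ± 0.08, adjusted p = 0.0697), but passed without the libraries that stood apart. Snap91, which encodes the clathrin adaptor AP180 of vesicle endocytosis, had 72.4, 89.0 and 101.1 CPM at P5, 28.8, 34.4 and 45.7 at P15, and 35.6, 49.7 and 60.8 in adults. It fell 2.43-fold at P15 against P5 with no overlap (log2 -1.28 ± 0.07, adjusted p = 1.31e-23) and rose in adults against P15 (log2 0.48 ± 0.06, adjusted p = 1.73e-09).

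Among SNAREs of other membranes, 13 of 17 rose and 3 fell at P15 against P5, and 2 rose and 11 fell in adults against P15. Over all genes, 42.5% rose and 40.9% fell in the first step, and 37% rose and 37.7% fell in the second. Vamp8, an endosomal and lysosomal SNARE, had 4.18, 6.11 and 7.86 CPM at P5, 12.9, 15.4 and 23.8 at P15, and 9.60, 12.8 and 17.8 in adults, and rose 2.71-fold at P15 against P5 (log2 1.44 ± 0.10, adjusted p = 1.68e-18). Vamp4, a SNARE of the trans-Golgi network, had 55.1, 62.4 and 66.9 CPM at P5, 119, 147 and 161 at P15, and 128, 151 and 198 in adults. It rose 2.32-fold at P15 against P5 (log2 1.21 ± 0.06, adjusted p = 1.04e-24) and did not pass in adults against P15 (log2 0.10 ± 0.05, adjusted p = 0.0945). Snap23, the SNAP of non-neuronal cells, rose at P15 against P5 (log2 0.83 ± 0.10) and fell in adults against P15 (log2 -0.44 ± 0.09).

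Stx2, a plasma membrane syntaxin of non-neuronal cells, fell to 33.1, 40.3 and 47.1 CPM in adults, against 58.6, 71.6 and 82.4 at P15, with no overlap (log2 -0.82 ± 0.04, adjusted p = 1.99e-22). In the same comparison Stx5a, a syntaxin between the endoplasmic reticulum and the Golgi apparatus, fell by a log2 of 0.76 (-0.76 ± 0.10) and Vamp3, the cellubrevin of recycling endosomes, by a log2 of 0.63 (-0.63 ± 0.05). Microglial, astrocytic and vascular markers were also measured at these ages: summed CPM had medians of 218, 396 and 295 at P5, P15 and in adults for 6 microglial markers, 3787, 8493 and 9312 for 7 astrocyte markers and 408, 429 and 174 for 8 endothelial and mural markers. Within the astrocyte sum, Aldh1l1 had medians of 174.9, 103 and 135 CPM, while the others had higher medians at P15 than at P5, as Slc1a2 with 1162, 3122 and 4346. The part of these marker shifts in the changes of the ubiquitous SNAREs was not tested.

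Partners of the release machinery outside the 60 genes were counted from lists of the active zone and of vesicle recycling. Of all genes, 83.4% were called at P15 against P5, 42.5% higher and 40.9% lower. In adults against P15, 74.7% were called, 37% higher and 37.7% lower. Of 25 active zone and release partners, 8 rose and 17 fell at P15 against P5, with a median log2 change of -0.53 against 0.02 over all genes. The smallest p-values were those of Erc1, an active zone scaffold (log2 -2.46 ± 0.08), Rab3d, a vesicle GTPase (log2 -2.06 ± 0.07), and Erc2 (log2 -1.35 ± 0.05). In adults against P15, 9 of these partners rose and 9 fell, led by Rab3b (log2 -0.70 ± 0.05), Ppfia3, a liprin (log2 0.99 ± 0.09), and Cadps, a priming factor of dense-core vesicles (log2 0.54 ± 0.05). Of 25 genes of vesicle loading and recycling, 6 rose and 14 fell at P15 against P5, with Ap2b1, an adaptor subunit, at a log2 of -1.23 ± 0.05, and 10 rose and 10 fell in adults against P15, with Dnm3, a dynamin, at 1.04 ± 0.07.

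The release genes varied unevenly between libraries of 1 age. The SD of log2(CPM + 1) between libraries had a median over the members of 0.086 for P5, 0.1797 for P15 and 0.158 for adults, against 0.118, 0.200 and 0.175 over all genes tested. Vamp2 spread more at P15, where its highest library held 2.42 times the CPM of the lowest, against 1.22 times at P5 and 1.49 times in adults. At P15 Rims3 had 281 and 285 CPM in F1i libraries 1 and 2, 250.2 in F1r library 1, and 139 in F1r library 6. In these 4 libraries Cplx2 had 1017, 938, 897 and 489, so that these genes were high and low in the same libraries. Vamp4 had the opposite order, with 119, 124, 125 and 150.3 CPM. Stx1a fell in the order of Cplx2 over a narrower range, with 101.6, 96.7, 83.5 and 78.0 CPM. F1i library 6, with a loading of -0.31 on the first component, had 97.1 CPM of Stx1a. Neuronal markers summed to 8498, 8126, 9139 and 9162 CPM in these libraries and myelin markers to 18257, 18610, 23587 and 28665. Astrocyte markers summed to 9599, 9072, 9245 and 7359 CPM, markers of oligodendrocyte precursors to 1404, 1374, 1307 and 1020, and endothelial and mural markers to 333, 416, 403 and 494. The part of these markers in the spread was not tested, and these genes were chosen after their values were seen.

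**Figure D3:**
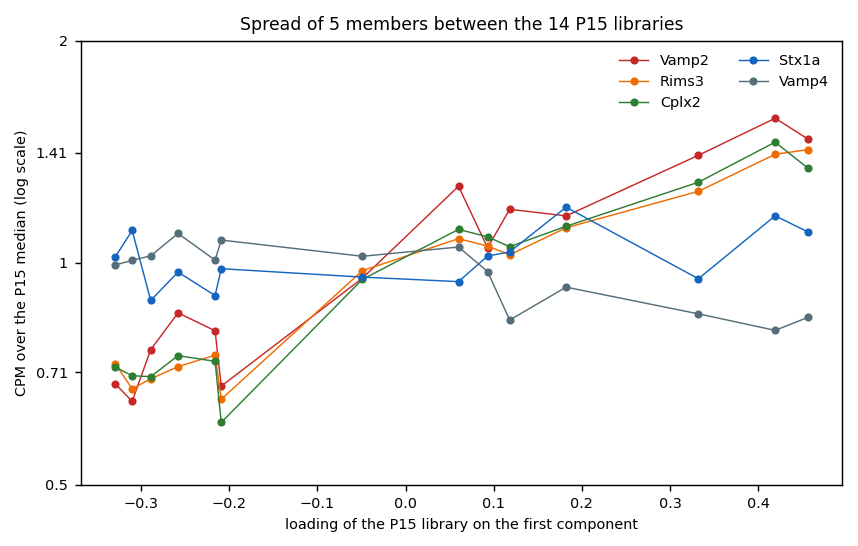
CPM of 5 members in each of the 14 P15 libraries, divided by the P15 median (y axis, log scale), against the loading of the library on the first principal component of P15 (x axis, no unit). Vamp2, Rims3 and Cplx2 climb along the axis, Stx1a stays near 1 and Vamp4 declines.

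Release genes were compared between the reciprocal crosses at each age. At P5, 3 of 59 members tested were lower and 0 higher in F1i against F1r. Of all genes, 1.17% were called, 0.673% lower and 0.495% higher. Vamp1 had 162, 169, 183, 183, 186, 192 and 194 CPM in F1i libraries, against 195.1, 201, 209, 213, 216, 228 and 234 in F1r libraries. No F1i library reached the lowest F1r library, and the log2 difference was -0.23 ± 0.04 (n = 7 and 7, adjusted p = 4.79e-05). Cplx1 had 158, 162, 165, 167, 169.5, 178 and 192 CPM in F1i libraries, against 169.8, 174, 197, 199, 202, 207 and 208 in F1r libraries, with overlap and a log2 difference of -0.19 ± 0.04 (adjusted p = 0.00506). Syt2 had a lowest, median and highest CPM of 192, 221 and 239 in F1i libraries, against 235, 241 and 265 in F1r libraries, with a log2 difference of -0.17 ± 0.04 (adjusted p = 0.00506).

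Cell type markers moved with cross at P5 as well. Myelin markers summed to between 1828 and 2164 CPM in F1i libraries, against between 2451 and 3057 in F1r libraries, and 8 of 8 tested were lower in F1i. Among 5 serotonergic markers 3 were lower in F1i, among 10 neuronal markers 4 were lower, and among 7 markers of immature neurons 4 were higher. The part of these shifts in the differences of Vamp1, Cplx1 and Syt2 was not tested.

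At P15, 0 of 60 members differed between crosses, as did 0.0467% of all genes (edgeR; DESeq2 also called 0 members), in an age at which libraries spread widely. Before adjustment, 235 of 12850 genes passed 0.05 in edgeR. In adults, 1 of 60 members was higher and 1 lower in F1i. Of all genes, 0.111% were called, 0.0962% higher and 0.0148% lower. These counts depend on how the adult libraries are treated. With libraries summed over their first label number, 2 members were higher and 4 lower, and over all genes 179 were higher and 127 lower, in place of 13 and 2. With the second label number as a block the same 2 members were called, and over all genes 65 were higher and 12 lower. Unc13b had 14.2, 15.6, 15.9, 16.1, 16.3, 16.8, 16.9, 17.0 and 18.2 CPM in F1i libraries, against 11.6, 11.7, 11.9, 11.97, 12.1, 12.5, 12.8, 13.05 and 14.1 in F1r libraries. All F1i libraries were above all F1r libraries, and the log2 difference was 0.40 ± 0.06, 1.32-fold higher in F1i (n = 9 and 9, adjusted p = 0.00191). Cplx1 had a lowest, median and highest CPM of 364, 408 and 454 in adult F1i libraries, against 423, 491 and 569.5 in F1r libraries, with overlap (log2 -0.28 ± 0.06, adjusted p = 0.0384).

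The difference between crosses was not shown to change with age. A test of that change between adults and P5 called 0 of 60 members and 0% of all genes with edgeR, where 574 of 13637 genes had an unadjusted p under 0.05 and DESeq2 called 3 genes. For Unc13b, F1i minus F1r gave log2 values of 0.10 ± 0.06 at P5, 0.20 ± 0.08 at P15 and 0.40 ± 0.06 for adults, and its change was 0.28 ± 0.08 (adjusted p = 0.638).

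**Figure D4:**
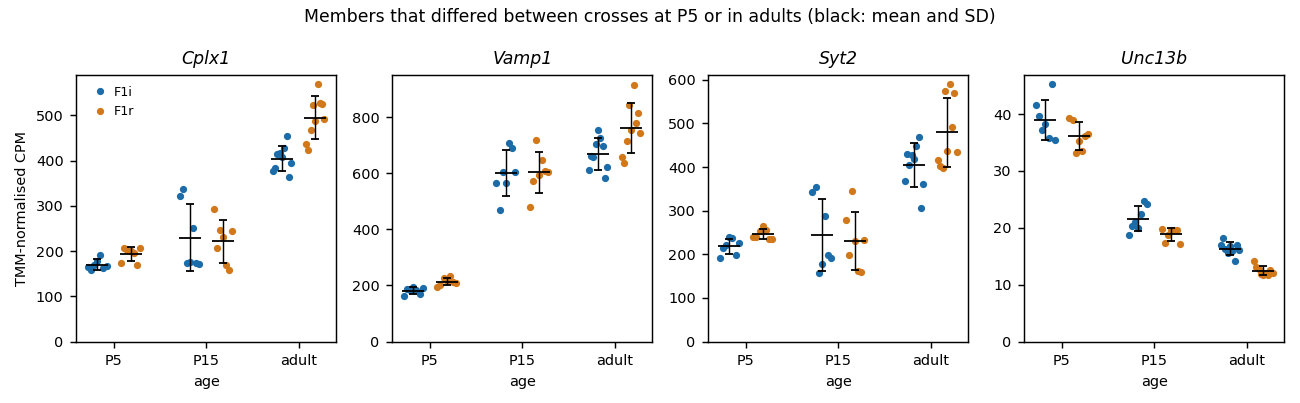
CPM in each library (y axis, linear from zero) of the 4 members that differed between crosses at P5 or in adults, by age (x axis), with F1i libraries in blue left of F1r libraries in orange and black marks for the mean and SD. F1i and F1r libraries do not overlap for Vamp1 at P5 and for Unc13b in adults.

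Allele counts within libraries compared the strains. At P5, 20 of 59 members had more CAST than C57 counts and 15 had fewer. Of all genes, 58.4% were called, 31.5% with more CAST counts and 26.9% with fewer. At P15, 16 of 58 had more CAST counts and 18 fewer, where 58.4% of all genes were called, 31.1% with more and 27.3% with fewer. In adults 25 of 60 had more and 18 fewer, where 67.8% of all genes were called, 35.9% with more and 31.9% with fewer. Most of these differences were small: the median of the absolute log2 ratio over the members was 0.105 for P5, 0.102 for P15 and 0.115 for adults, against 0.154, 0.165 and 0.158 over all genes. Calls over the 3 ages together were counted for the members only and not for all genes, so they show no trait of release genes. Of 52 members called at 1 age or more, 21 were called at all 3 ages, 11 of them with more CAST counts and 9 with more C57 counts at every age. Stx3, a syntaxin of ribbon synapses and of postsynaptic membrane traffic, was the remaining 1, with log2 CAST over C57 ratios of -0.23 ± 0.04 at P5, -0.11 ± 0.04 at P15 and, with the opposite sign, 0.11 ± 0.02 in adults.

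Several strain differences held in every library. Stxbp4, a syntaxin-binding protein known from insulin-driven transport, had a CAST share of its allele counts of 36.7%, 39.7% and 45.5% in the lowest, median and highest P5 library, 36.4%, 42.7% and 46.3% at P15, and 34.7%, 40.2% and 42.4% in adults. All 46 libraries were below an equal share, with log2 ratios of -0.56 ± 0.04, -0.45 ± 0.04 and -0.61 ± 0.03. Syt4, a synaptotagmin of dense-core vesicles, had 10.9% of its words of 50 bases in common with another gene. It was also below an equal share in all libraries, at log2 ratios of -0.36 ± 0.02, -0.42 ± 0.02 and -0.25 ± 0.01. Syt5 was above it in all libraries, with CAST shares of 50.9%, 54.0% and 57.8% at P5, 53.8%, 59.6% and 62.9% at P15, and 54.7%, 57.9% and 59.8% in adults, and log2 ratios of 0.23 ± 0.03, 0.54 ± 0.04 and 0.45 ± 0.02.

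Of the core genes, Vamp1 and Vamp2 had small log2 ratios and Syt2 and Cplx1 larger ones. For Vamp2 the log2 ratios were 0.06 ± 0.01 (P5), 0.02 ± 0.02 (P15, adjusted p = 0.305, not called) and 0.05 ± 0.01 (adults). Vamp1 had -0.05 ± 0.03, 0.06 ± 0.02 and 0.00 ± 0.01, of which only P15 passed (adjusted p = 0.00275), although with a scaling factor for each allele column P5 (-0.06) and adults (-0.03) passed too. Syt2 had 0.18 ± 0.02, 0.20 ± 0.02 and 0.18 ± 0.01, and Cplx1 had 0.09 ± 0.02, 0.20 ± 0.02 and 0.15 ± 0.01, with more CAST counts at every age. For Syt2 the CAST share was above an equal share in all 46 libraries.

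The largest log2 ratios were those of low-count genes. Unc13d, the Munc13-4 of immune cell granules, had a CAST share of 69.6%, 81.7% and 95.5% at P5 and 57.1%, 69.9% and 80.7% in adults, with log2 ratios of 2.02 ± 0.17 and 1.17 ± 0.10, and was under the count minimum at P15. The pseudogene Vamp7-ps had 819 CAST counts at P5, 1230 at P15 and 1464 in adults, against 0 C57 counts at each age, which with a floor of 3 counts over all libraries of an age makes the CAST count at least 273-fold, 410-fold and 488-fold higher. The standard errors come from the fit and take in spread between libraries, while the floor covers counting error only. How reads were assigned to an allele is not given in the sources used here. An allele with 0 counts may therefore be one to which no read could be assigned.

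The allele ratio itself changed with age for some members. At P15 against P5, 10 of 58 members shifted to CAST and 3 to C57, where 19.7% of all genes were called, 9.54% to CAST and 10.2% to C57. In adults against P15, 7 of 58 shifted to CAST and 6 to C57, where 16.1% of all genes were called, 7.75% to CAST and 8.32% to C57. With a scaling factor of its own for each allele column these splits became 7 and 11, and 13 and 4, while over all genes they moved from 1114 and 1188 to 836 and 1609, and from 926 and 994 to 1339 and 767, so the small shifts depend on scaling.

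Syt13, an atypical synaptotagmin without a calcium-binding site, changed most. Its CAST share was 35.3%, 36.7% and 38.4% in the lowest, median and highest P5 library, 45.3%, 49.2% and 53.0% at P15, and 45.5%, 46.9% and 48.1% in adults. No P5 library reached any library of the later ages. The log2 ratio was -0.79 ± 0.02 in P5 libraries, -0.06 ± 0.02 in P15 libraries and -0.18 ± 0.01 in adult libraries, a change of 0.73 ± 0.03 at P15 against P5 (adjusted p = 1.6e-33) and of -0.12 ± 0.02 in adults against P15 (adjusted p = 0.000101). Its summed CPM were 395, 414 and 436 at P5, 236, 334 and 475 at P15, and 412, 476 and 554 in adults, so that the total did not follow the share.

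Syt17 had its highest median CAST share at P15. Its CAST share was 44.6%, 51.2% and 53.2% at P5, 51.5%, 61.8% and 79.2% at P15, and 49.5%, 54.2% and 58.6% in adults, above an equal share in 10 of 14, 14 of 14 and 17 of 18 libraries. P15 libraries ranged widely and overlapped those of both other ages. The log2 ratio changed by 0.66 ± 0.09 at P15 against P5 (adjusted p = 2.12e-08) and by -0.47 ± 0.09 in adults against P15 (adjusted p = 7.66e-05). Both changes use the same P15 libraries, and the ratio in adults was not tested against P5. Stxbp2 had CAST shares of 27%, 37.9% and 46% at P5, 38.8%, 44.8% and 60% at P15, and 37.8%, 49.6% and 65.6% in adults, a change of 0.55 ± 0.12 at P15 against P5 (adjusted p = 0.000274).

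Snap29, a ubiquitous SNAP of autophagosome fusion, shifted to CAST at P15 against P5 by a log2 of 0.25 ± 0.04 (adjusted p = 3.06e-06), with shares of 47.3%, 49.4% and 51.8% at P5, 49.3%, 53.9% and 58.8% at P15, and 52.3%, 53.4% and 58.7% in adults. Rims2, a RIM scaffold, shifted to CAST in adults against P15 by 0.29 ± 0.06 (adjusted p = 6.76e-05), and its summed CPM did not pass at either age step. Unc13b shifted to C57 at P15 against P5 (log2 -0.26 ± 0.09), as did Syt9 (-0.19 ± 0.05) and Rims3 (-0.13 ± 0.03).

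**Figure D5:**
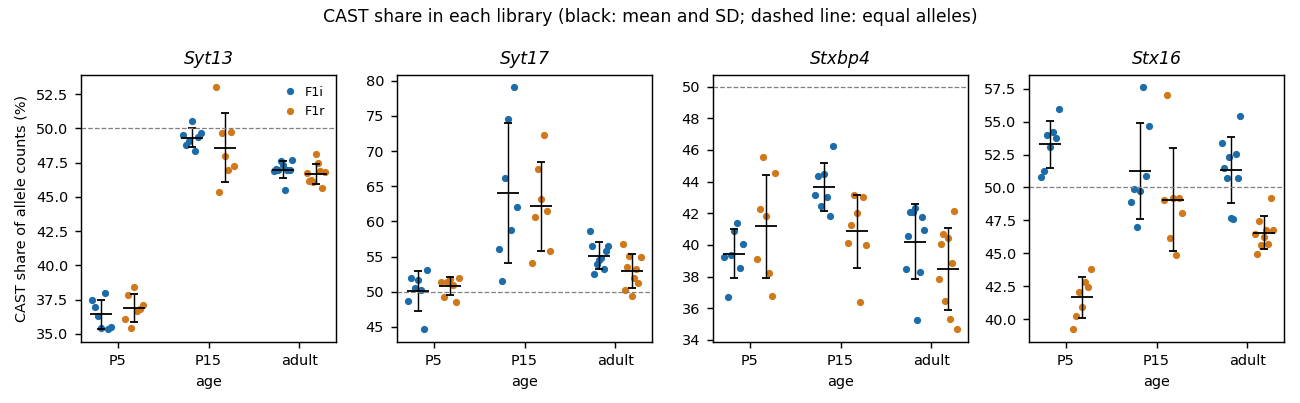
CAST share of allele counts in each library (y axis, percent, not starting at zero) for Syt13, Syt17, Stxbp4 and Stx16 by age (x axis), with F1i libraries in blue left of F1r libraries in orange, black marks for the mean and SD and a dashed line at equal alleles. Syt13 is low in all P5 libraries, Stxbp4 is below the line in every library, and Stx16 separates F1i from F1r at P5.

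Among the members, Stx16 was the only one called for an allele ratio that differed between crosses. Stx16 (ENSMUSG00000027522), on chromosome 2, encodes a syntaxin of the trans-Golgi network. The parental effect, taken as the log2 CAST over C57 ratio in F1i minus that in F1r, divided by 2, was called for 1 of 59 members at P5, where 2.71% of all genes were called. At P15 it was called for 0 of 58 members and 0.742% of all genes (edgeR; limma also called 0 members, and 712 of 11996 genes passed 0.05 before adjustment), and among adults for 1 of 60 members and 2.71% of all genes. At P5 the CAST share of Stx16 was 50.8%, 53.8% and 56.0% in the lowest, median and highest F1i library, against 39.2%, 42.1% and 43.8% in F1r libraries, with no overlap. In adults it was 47.6%, 51.5% and 55.4% in F1i libraries, against 44.9%, 46.4% and 49.2% in F1r libraries, with overlap, and at P15 47.0%, 49.9% and 57.7% in F1i libraries, against 44.8%, 49.1% and 57.03% in F1r libraries.

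The effect for Stx16 was 0.34 ± 0.04 at P5 (n = 7 and 7, adjusted p = 9.19e-10), 0.08 ± 0.04 at P15 (adjusted p = 0.878) and 0.15 ± 0.02 in adults (n = 9 and 9, adjusted p = 8.9e-05). Whether it differed between ages was not tested. In the order of RefSeq genes, Stx16 lies 6 places from Gnas, an imprinted gene, with parental effects of -4.17 ± 0.10 at P5, -2.87 ± 0.11 at P15 and -2.21 ± 0.10 among adults, opposite in sign to those of Stx16. Npepl1, the next gene after Stx16 on the way to Gnas, was not called at any age, with effects of 0.14 ± 0.08, 0.26 ± 0.10 and 0.05 ± 0.06.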

How the data were processed

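Messenger RNA was measured in 46 libraries. The deposited files hold counts, whole numbers for each allele of a gene, from 50 bp single-end TruSeq reads, per the labels. Novoalign and the mm9 build are named in the submitters' processing notes. How reads were assigned to an allele, whether strand was used and how multiply matching reads were counted is not given in the sources used here. All 92 columns were matched to a library by name, and 0 value columns were left over.

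The members and the gene lists were chosen with earlier results of these data known. Symbols were taken from GENCODE M21 by Ensembl identifier, without coordinates, and name 14969 of 15499 genes.

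Totals were the sum of both alleles, scaled by TMM, and were fitted with the edgeR quasi-likelihood test (edgeR 4.0.16, R 4.3.3): 1 fit of 6 groups for age, and 1 fit per age for cross. Allele counts were fitted with 1 column per library and allele, a term for each library, and allele by cross, for genes whose summed count averaged 20 or more. Standard errors are the log2 effect over the root of the F statistic, and p-values were adjusted by Benjamini-Hochberg over all genes tested. Simulated data were used to test the fits of totals at P15 against P5, of the CAST over C57 ratio at P5 and of the parental effect at P5. The fits of totals by cross and of the change of the allele ratio with age were not tested so. Simulated allele counts held counting error only, with no further spread between libraries. Simulated totals had the same dispersion for every gene and no deviation shared by the genes of a library, unlike the P15 and adult libraries. The outcome of the simulations is not given here. DESeq2 1.42.0, limma 3.58.1, other scalings and filters, and a replicate block were alternatives.

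In a comparison with 10 or fewer called members all were named; in others, the 6 largest effects each way with a mean of 10 CPM or more, and a list of core members. Further members named, the sequences of Syt1 and Syt2, and the members examined for a library far from the others were chosen after their values were seen. Proteins were not used here, and a few named genes and their sequences are not reported here, although they stay in the counts. Whether label numbers pair the libraries was checked by the correlation of their deviations from the group means.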

Additional observations from a re-analysis of the deposited data

Results flagged for a closer look

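In 5 of 156 groups of libraries examined, 1 library lay far from the others of its group (Dixon's criterion), and chance alone flags about 1 in 20 groups. Unc13c was at 65 CPM in P5 F1r library 2, the library farthest out on the first component at P5, where the others had 72.31 to 75.61. Unc13a was at 168.6 CPM in adult F1i library 1, one of the libraries that stood apart, where the others had 203.9 to 234. Among CAST shares, Stx16 was at 57.03% in P15 F1r library 2, against 44.84% to 49.21% in the others, Stx3 was at 53.7% in P15 F1i library 2, against 46.04% to 48.8%, and Syt13 was at 45.52% in adult F1i library 6, against 46.89% to 47.68%.

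The CAST over C57 ratio of the following members differed between ages by the test of the difference itself. At P15 against P5 the log2 ratio was higher for Syt13 by 0.730, Syt17 by 0.664, Stxbp2 by 0.547, Syt5 by 0.312, Snap29 by 0.250, Syn3 by 0.234, Sv2b by 0.140, Cplx1 by 0.111 and Vamp1 by 0.111, and it changed by -0.255 for Unc13b, -0.192 for Syt9 and -0.130 for Rims3.

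In adults against P15 the log2 ratio was higher for Rims2 by 0.287, Vamp3 by 0.226, Stx3 by 0.223, Syt4 by 0.163, Syt6 by 0.118 and Syt1 by 0.060. It changed by -0.468 for Syt17, -0.170 for Syt11, -0.163 for Stxbp4, -0.158 for Syt12, -0.122 for Syt13 and -0.064 for Vamp1.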

How the results depend on the processing

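Of 839 recomputed values of named genes, 818 kept their side of the threshold, 17 passed it newly and 4 no longer passed. Among values that passed in either setting, 0 changed direction. Changes of sign in values that passed in neither setting were not counted. The 4 lost calls came with a TMM factor for each allele column: Cplx1 (0.08, adjusted p = 0.0534) and Syn3 (0.21, adjusted p = 0.068) at P15 against P5, and Syt12 (-0.14, adjusted p = 0.0568) and Vamp1 (-0.04, adjusted p = 0.208) in adults against P15. That scaling gave 11 members shifted to C57 at P15 against P5 and 13 shifted to CAST in adults against P15, in place of 3 and 7. For cross at P5, DESeq2 called 1 member higher in F1i, Rims3, in place of 0. With adult libraries summed over their first label number, 6 members were called for cross, 2 higher and 4 lower, in place of 2, 1 and 1; Stx3, Sv2c, Syt2 and Vamp1 were gained. With the replicate block, 56 members were called at P15 against P5 in place of 55, and no call named in the text was lost. Without the libraries that stood apart, 55 members were called at P15 against P5, 54 of them shared, with Stx17 lost. In adults against P15, 49 were called, 47 of them shared: Stx18 and Stxbp4 were lost, and Syn3 and Syt17 gained. These genes lie outside the 839 values. Syn3 also passed in that step with DESeq2 and with another scaling. For cross, 0 members were called at P15 and the same 2 in adults. At P5 and P15 numbers did not pair the libraries: same-numbered F1i and F1r libraries correlated in their deviations by between -0.084 and 0.076 at P5 and between -0.382 and 0.730 at P15, and 2 of 7 F1i libraries at P5 and 1 of 7 at P15 were closest to their own number. In adults the second number went with a shared deviation, though not in every pair: same-numbered F1i and F1r libraries correlated by a median of 0.316 (between -0.458 and 0.824), against -0.110 for different numbers, and within F1i by a median of 0.360 against -0.249. No block was fitted for adults against P15, whose label numbers differ in form. Over all genes in adults, the block called 65 higher and 12 lower by cross, in place of 13 and 2, and sums over the first number called 179 and 127. The cause of these shifts was not tested. Low-count members such as Vamp5 and Unc13d have wide errors at this depth.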
